A study of Saccharomyces cerevisiae with 21 samples.

Results

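The genes described are POX1, FOX2, POT1, SPS19, ECI1, DCI1, CTA1, PEX11, FAA2 and PXA1, which act in the oxidation of fatty acids in peroxisomes of budding yeast. They were chosen by name, and all 10 were found, each with 1 probe set, among the 5449 genes tested. The study measured RNA of mid-log cultures grown at 30 °C on Affymetrix arrays, 21 in all, in 7 groups of 3. It set wild type against strains with a damaged Mediator tail, which is the end of the Mediator coactivator that many activators bind.

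Wild type, MATa with his3Δ1, leu2Δ0, met15Δ0 and ura3Δ0, was grown in YPD, a rich medium, and in CSM, a complete synthetic one. The strain gal11Δ med3Δ, grown in both media, is labelled MATα and carries med15Δ::kanMX4 and med3Δ::kanMX4 with those 4 auxotrophic alleles, where GAL11 and MED15 name the same gene. The strain gal11-myc med3Δ, also grown in both media, is MATa and has med3Δ::URA3 and a tagged GAL11-13MYC::HIS3MX. It further carries srb4Δ::kanMX with SRB4 on the plasmid RY2844 (CEN LEU2), is his3Δ1, leu2Δ0 and ura3Δ0, and lists no met15 allele. BY4742, a further wild type labelled MATa with lys2Δ0 and no met15 allele, was grown in YPD only and entered the fit as a source of spread. Its 3 arrays hold identical values for 465 genes (8.53%), POX1 and FAA2 among them, against at most 14 genes (0.257%) in any other group, so it adds degrees of freedom but no spread there. Without BY4742 the standard error of a difference rose from 0.25 to 0.27 for POX1 and from 0.26 to 0.28 for FAA2, and 1 call of these 2 genes was lost, that of FAA2 between media in gal11Δ med3Δ (adjusted p = 0.0502, limma). All groups share his3Δ1, leu2Δ0 and ura3Δ0. Each mutant thus differs from wild type in more than the Mediator genes, and these differences cannot be told apart. The labels name no separate clones or cultures for the replicates, so p-values measure the spread between these arrays, which may be technical.

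Yeast breaks down fatty acids in peroxisomes alone. A fatty acid enters through the transporter made of Pxa1 and Pxa2 or is activated inside by Faa2, and then passes through oxidation by Pox1, hydration and a further oxidation by Fox2, and cleavage by the thiolase Pot1, while Sps19, Eci1 and Dci1 convert unsaturated chains and the catalase Cta1 removes the hydrogen peroxide that Pox1 makes. Most of these genes are known to be repressed by glucose and induced by oleate through the activators Oaf1, Pip2 and Adr1, and Gal11 is a known contact of Oaf1.

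The deposited log2 values are centred on each probe set's median, separately over the 9 YPD arrays, the 9 CSM arrays and the 3 BY4742 arrays. A value of 0 is therefore the median of its medium, levels in YPD and CSM cannot be compared, and only differences within a medium, or the difference of such differences, carry information. Differences below are log2 with their standard error, from limma over all 21 arrays with Benjamini-Hochberg adjustment over 5449 genes, and a gene passed at an adjusted p under 0.05 whatever its size. Because the RNA is bulk, less RNA per cell and fewer cells that express a gene cannot be told apart.

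The targeted genes were checked first. In gal11Δ med3Δ the GAL11 difference was -6.43 (YPD) and -5.62 (CSM), while the tagged strain differed by -0.59 and -0.55. PGD1, the gene of Med3, was lower by -4.05 to -4.51 in both mutants and both media. For LYS2, gal11Δ med3Δ was lower than wild type by -6.50 (YPD) and -6.88 (CSM), although its label lists no lys2 allele. MET17, which is MET15, differed from the met15Δ0 wild type by 0.08 and 0.0379 in gal11-myc med3Δ, which did not pass, although that label lists no met15 allele. URA3, the marker at its MED3 locus, was higher there by 7.46 and 6.52. The median gene SD within a group ran from 0.0463 in gal11-myc med3Δ CSM to 0.141 in gal11Δ med3Δ CSM. Gene-by-gene array weights, a measure of how well an array follows its group, were lowest in gal11Δ med3Δ CSM replicate 1 (0.0739), in replicate 3 of wild type YPD (0.12), gal11-myc med3Δ YPD (0.160) and gal11Δ med3Δ YPD (0.249), and in BY4742 replicate 1 (0.150), against 0.626 or more in all others. An alternative chosen after seeing the data left out the 3 YPD arrays numbered 3, alone and together with gal11Δ med3Δ CSM replicate 1. BY4742 was left out as a group in a separate alternative that was not chosen this way.

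**Figure D1:**
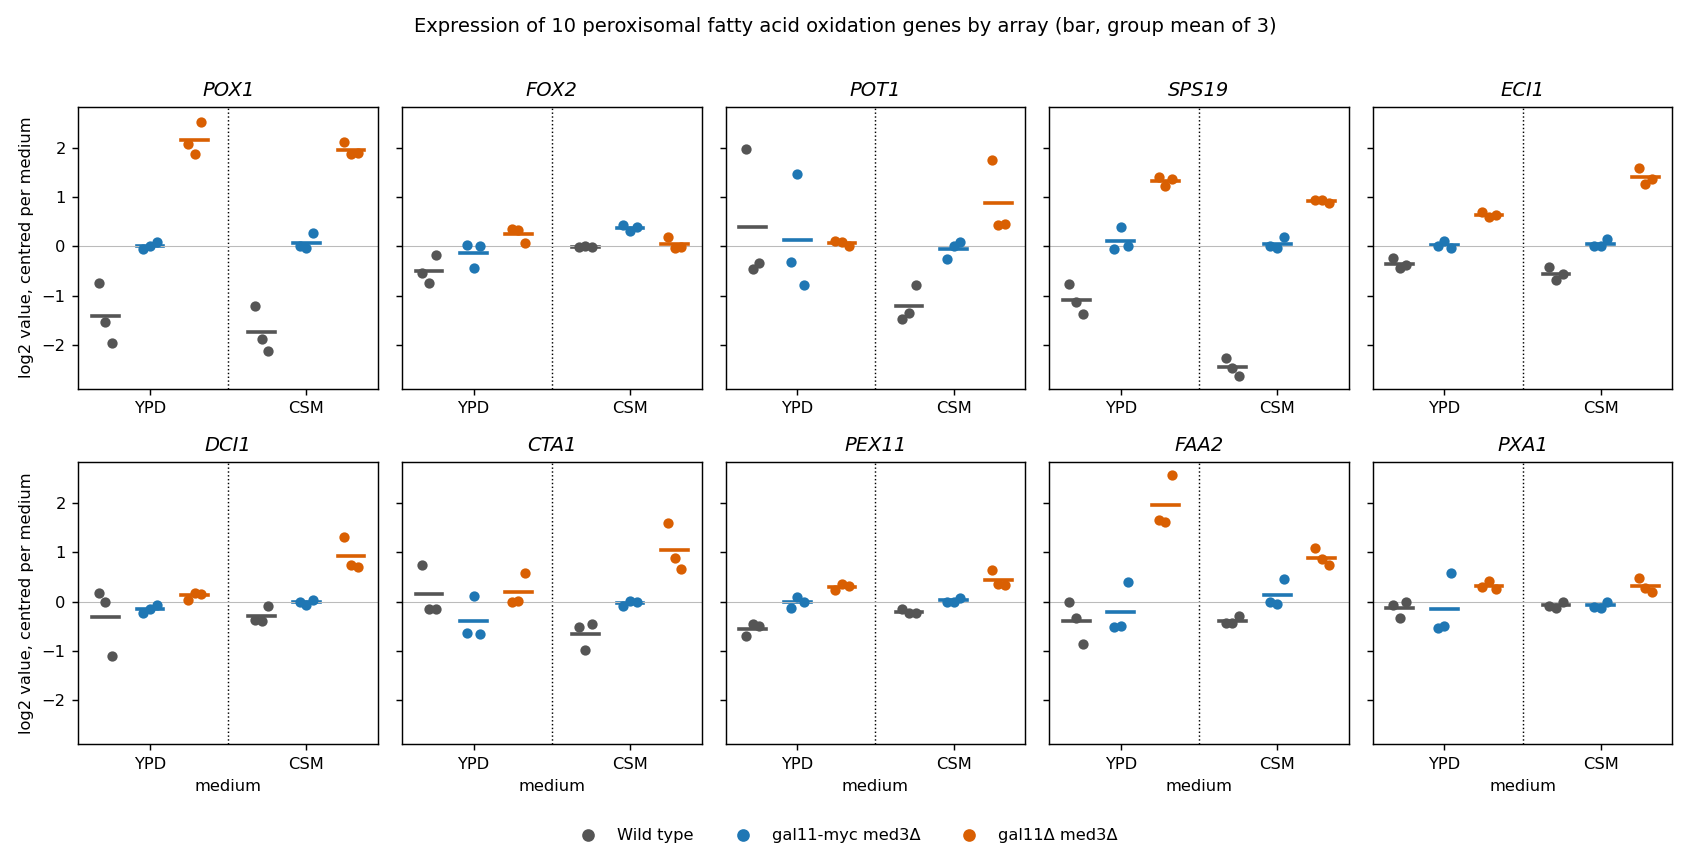
Log2 values (y axis, centred on the median of the 9 arrays of a medium) of the 10 genes on each of 18 arrays, with YPD to the left and CSM to the right of the dotted line. Points are arrays and bars are group means; POX1 and SPS19 lie lowest in wild type and highest in gal11Δ med3Δ in both media.

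In YPD, gal11Δ med3Δ had 6 of the 10 genes higher than in wild type and 0 lower, against 27.5% of all genes higher and 19.4% lower. POX1, SPS19 and FAA2 rose by 2-fold or more, as did 4.66% of all genes. The median difference of the 10 genes was 0.79, against 0.03 over all genes. FOX2, ECI1 and PEX11 passed at smaller sizes, and POT1, DCI1, CTA1 and PXA1 did not pass.

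POX1, the acyl-CoA oxidase of the first step, read -0.74, -1.54 and -1.96 in the 3 wild type YPD arrays and 2.07, 1.87 and 2.53 in gal11Δ med3Δ. The groups lay far apart. POX1 was higher by 3.57 ± 0.25 (adjusted p = 6.62e-09, limma), 11.9-fold, and was the 5th largest rise of the 5449 genes. SPS19, the dienoyl-CoA reductase that serves unsaturated chains, read -0.77, -1.13 and -1.37 in wild type and 1.39, 1.22 and 1.37 in the mutant. Again no array of one group reached the other. The difference was 2.42 ± 0.14 (adjusted p = 5.17e-10, limma), 5.34-fold.

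FAA2, the peroxisomal acyl-CoA synthetase, read 0.00, -0.34 and -0.86 in wild type YPD and 1.66, 1.62 and 2.57 in gal11Δ med3Δ. The 3rd mutant array stood above the other 2, and the groups did not overlap. The rise was 2.35 ± 0.26 (adjusted p = 1.91e-06, limma). ECI1, the enoyl-CoA isomerase, read -0.24, -0.44 and -0.37 against 0.70, 0.60 and 0.64 and rose by 1.0 ± 0.09. PEX11, which drives peroxisome division, read -0.69, -0.45 and -0.50 against 0.24, 0.35 and 0.33 and rose by 0.86 ± 0.09. Both groups were tight for these genes and lay apart. FOX2, the hydratase and dehydrogenase, read -0.55, -0.74 and -0.18 against 0.34, 0.33 and 0.06. It rose by 0.73 ± 0.16 (adjusted p = 0.00125, limma), but its corrected p in the authors' deposited table was 0.083.

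The thiolase POT1 read 1.97, -0.45 and -0.33 in wild type YPD and 0.11, 0.10 and 0.00 in gal11Δ med3Δ. One wild type array, replicate 1, stood above all others, and the groups overlapped. The difference of -0.33 ± 0.59 did not pass, with a 95% interval from -1.56 to 0.91. With limma's default array weights, whose iteration stopped before convergence, it was -1.61 (adjusted p = 0.0282, limma). Those weights gave wild type replicate 1 a weight of 5.49. Without that array the difference was 0.46 (adjusted p = 0.489, limma), and with gene-by-gene weights POT1 did not pass. The catalase CTA1 read 0.75, -0.15 and -0.15 against 0.00, 0.01 and 0.57, with the same wild type array highest. Its difference was 0.05 ± 0.28 (interval -0.54 to 0.63). DCI1, the dienoyl-CoA isomerase, read 0.17, 0.00 and -1.09 against 0.03, 0.18 and 0.16. Wild type replicate 3 was low, and the difference of 0.43 ± 0.23 did not pass. Without that array the difference was 0.04, the lowest of the 6 fits that left out 1 array. Without wild type replicate 1 it was 0.67 (adjusted p = 0.0281, limma), the only 1 of those 6 fits that passed. PXA1, a subunit of the fatty acid transporter, read -0.07, -0.32 and 0.00 against 0.29, 0.43 and 0.25. These groups did not overlap, and the difference of 0.45 ± 0.20 had an adjusted p of 0.0768 (limma). It passed with the 6 arrays of the groups compared (adjusted p = 0.0186), which gave 7 genes higher against 21.9% of all genes, without the YPD arrays numbered 3 (0.00225), and with default and gene-by-gene array weights (0.00676 and 0.00213). The 7 genes with no overlap between groups compare with 29.3% of all genes higher without overlap.

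In CSM, 8 of the 10 genes were higher in gal11Δ med3Δ and 0 lower, against 27.1% of all genes higher and 18.4% lower, and 7 rose by 2-fold or more, against 5.07%. The median difference was 1.49, against 0.04 over all genes. POT1, DCI1 and CTA1 passed here, and FOX2 and PXA1 did not. Of the 10 genes, 9 were higher without overlap, against 34.2% of all genes.

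POX1 read -1.21, -1.88 and -2.12 in wild type CSM and 2.11, 1.87 and 1.88 in gal11Δ med3Δ. Its rise of 3.69 ± 0.25 (adjusted p = 3.1e-09, limma) was 12.9-fold. SPS19 read -2.26, -2.45 and -2.62 against 0.94, 0.94 and 0.88. The rise was 3.36 ± 0.14, 10.3-fold, with the groups far apart. ECI1 read -0.42, -0.69 and -0.57 against 1.59, 1.26 and 1.37, a rise of 1.96 ± 0.09 (3.89-fold).

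POT1 read -1.47, -1.34 and -0.79 in wild type CSM and 1.75, 0.43 and 0.44 in gal11Δ med3Δ. Replicate 1 of the mutant stood well above its peers, but all 3 lay above wild type. The difference was 2.07 ± 0.59 (adjusted p = 0.00788, limma), or 1.63 (adjusted p = 0.0441) without that array, and the authors' deposited table gives it a corrected p of 0.0709. CTA1 read -0.52, -0.97 and -0.46 against 1.60, 0.88 and 0.67, a rise of 1.70 ± 0.28. DCI1 read -0.38, -0.39 and -0.09 against 1.32, 0.74 and 0.70, a rise of 1.20 ± 0.23. The same mutant array was highest for both, and without it the rises were 1.42 and 1.0.

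FAA2 read -0.43, -0.42 and -0.30 against 1.08, 0.86 and 0.74 in CSM and rose by 1.28 ± 0.26. PEX11 read -0.15, -0.22 and -0.23 against 0.64, 0.37 and 0.34 and rose by 0.65 ± 0.09. Neither gene's groups overlapped. FOX2 read -0.01, 0.00 and -0.01 in wild type and 0.18, -0.04 and -0.02 in the mutant, with a difference of 0.05 ± 0.16 (interval -0.29 to 0.39). PXA1 read -0.09, -0.13 and 0.00 against 0.48, 0.27 and 0.20, and its difference of 0.39 ± 0.20 did not pass. PXA1 passed with the 6 arrays compared (adjusted p = 0.0128, limma), with the 9 CSM arrays (0.00298), with default and gene-by-gene weights (0.000925 and 0.00654) and without the YPD arrays numbered 3 (0.00518). The first 2 of these settings gave 9 genes higher, against 25.6% and 30.5% of all genes. With replicate 1 of gal11Δ med3Δ left out, the count of higher genes in CSM was again 8, and no share of all genes is given here for that fit.

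**Figure D2:**
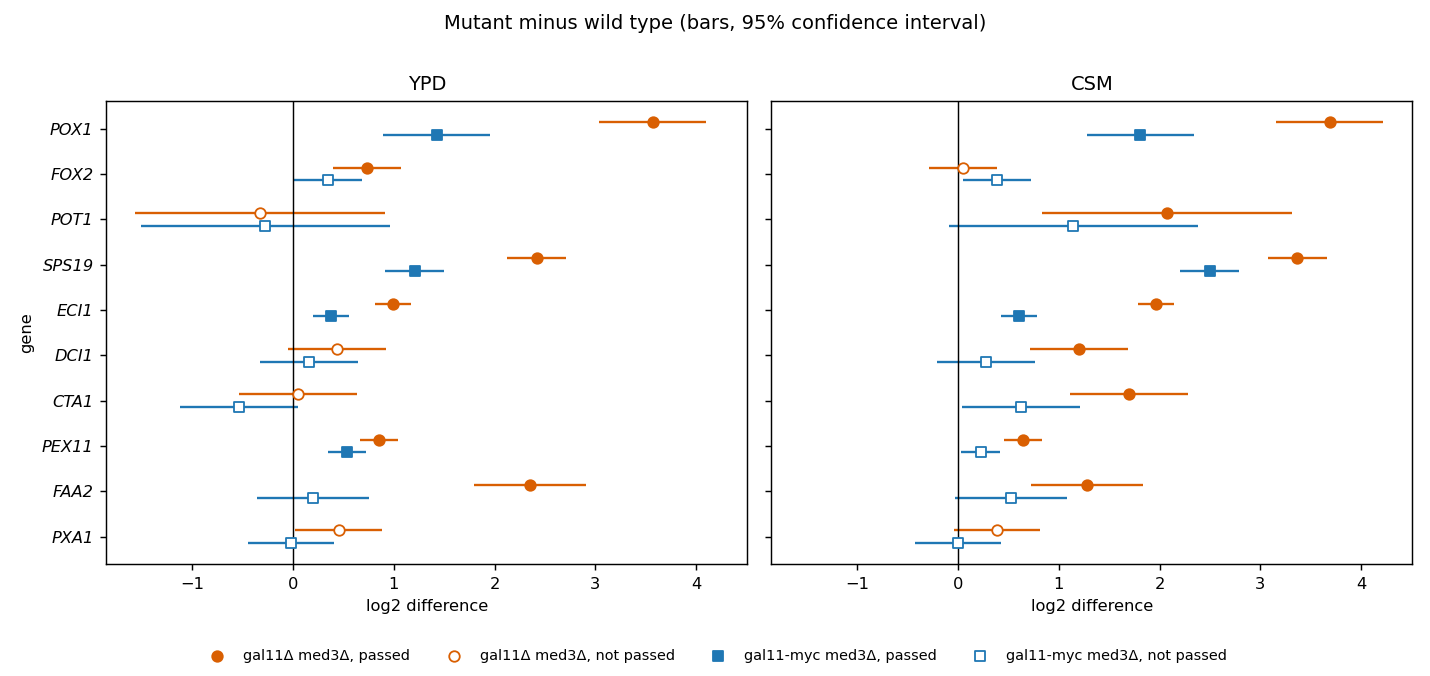
Log2 difference from wild type (x axis) of each gene in YPD (left) and CSM (right), with 95% confidence intervals; circles are gal11Δ med3Δ, squares gal11-myc med3Δ, and filled symbols passed. POX1, SPS19 and ECI1 passed in all 4 comparisons, and every filled symbol lies above 0.

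The strain gal11-myc med3Δ was compared with the same wild type arrays. In YPD, 4 of the 10 genes were higher and 0 lower, against 21.2% of all genes higher and 12.1% lower, and POX1 and SPS19 rose by 2-fold or more, against 2.57% of all genes. POX1 read -0.06, 0.00 and 0.09 in the mutant, above all wild type arrays, and rose by 1.43 ± 0.25 (adjusted p = 0.000332, limma), 2.69-fold. SPS19 read -0.05, 0.40 and 0.00 and rose by 1.21 ± 0.14 (2.31-fold). ECI1, at 0.00, 0.10 and -0.03, rose by 0.37 ± 0.09, and PEX11, at -0.13, 0.09 and 0.00, by 0.54 ± 0.09. All 4 genes lay above wild type on every array, against 24.6% of all genes. None of the 10 genes (0 of 10) had a corrected p under 0.05 here in the authors' deposited table. The share of all its probe sets that did is not given here, so this count is not set against one.

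The other 6 genes did not pass in YPD. POT1 read -0.31, 1.46 and -0.79 in gal11-myc med3Δ, with replicate 2 high, and differed by -0.27 ± 0.59. CTA1 read -0.63, 0.12 and -0.65 and differed by -0.53 ± 0.28 (adjusted p = 0.156, limma). FAA2, at -0.50, -0.50 and 0.39, differed by 0.20 ± 0.26, and PXA1, at -0.52, -0.49 and 0.57, by -0.02 ± 0.20. In FAA2 and PXA1 replicate 3 was the high array. DCI1 differed by 0.16 ± 0.23 and FOX2 by 0.35 ± 0.16 (adjusted p = 0.104). This comparison depended on how the arrays were weighted. With limma's default array weights, whose iteration stopped before convergence, POT1, DCI1, CTA1, FAA2 and PXA1 passed as lower (5 of 10). With gene-by-gene weights CTA1 and PXA1 did (2 of 10). No share of all genes is given here for either weighting, so these counts are not set against one. The default weight of replicate 1 was 5.49 in wild type YPD and 3.78 in gal11-myc med3Δ YPD. For replicate 3 of these groups it was 0.12 and 0.16. FOX2 passed as higher under both weightings (0.50, adjusted p = 4.84e-05, and 0.46, adjusted p = 0.0022, limma), and also without gal11-myc med3Δ YPD replicate 2 (0.0286) or wild type YPD replicate 3 (0.022). Without the YPD arrays numbered 3, 4 genes were higher and 0 lower. Without gal11Δ med3Δ CSM replicate 1 as well, 4 were higher and 2 lower, DCI1 and PXA1. These settings too are given without a share of all genes.

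In CSM, gal11-myc med3Δ had 3 of the 10 genes higher and 0 lower, against 22.4% of all genes higher and 14.2% lower. POX1 and SPS19 rose by 2-fold or more, against 2.95%. POX1 read 0.00, -0.04 and 0.26 and rose by 1.81 ± 0.25 (adjusted p = 1.97e-05, limma). SPS19 read 0.00, -0.03 and 0.20 and rose by 2.50 ± 0.14 (adjusted p = 8.23e-10, limma), 5.65-fold, the 18th largest rise of 5449. ECI1 read 0.00, -0.00 and 0.15 and rose by 0.60 ± 0.09 (adjusted p = 2.22e-05, limma). The 3 genes lay above all wild type arrays.

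Below the threshold in CSM were POT1 (1.14 ± 0.59), CTA1 (0.63 ± 0.28), FAA2 (0.52 ± 0.26), FOX2 (0.38 ± 0.16), DCI1 (0.27 ± 0.23), PEX11 (0.22 ± 0.09) and PXA1 (0.00 ± 0.20). Of the 10 genes, 9 were higher without overlap, all but PXA1, against 43.1% of all genes. The count of 3 depended on the spread that was used. It was 7 with the 9 CSM arrays alone (26.8% of all genes higher), 9 with the 6 arrays of the groups compared (39% of all genes higher), 5 with the replicate number as a block (26.6% of all genes higher), and 6 in the authors' deposited table. It was 5 without the YPD arrays numbered 3, and 8 without these and gal11Δ med3Δ CSM replicate 1. For these settings and the authors' deposited table no share of all genes is given here, so those counts are not set against one. Both groups were tight, with a median gene SD of 0.0556 in wild type and 0.0463 in the mutant, against 0.111 to 0.137 in the YPD groups of wild type and mutants.

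The mutants were then compared with each other. In YPD, 5 of the 10 genes were lower in gal11-myc med3Δ than in gal11Δ med3Δ and 0 higher, against 8.96% of all genes lower and 6.15% higher. POX1 was lower by -2.15 ± 0.25 and FAA2 by -2.15 ± 0.26, and both fell among the 8 lowest of 5449 genes. SPS19 was lower by -1.21 ± 0.14, the 3rd of these genes beyond 2-fold, against 1.25% of all genes. ECI1 was lower by -0.62 ± 0.09. PEX11 was lower by -0.32 ± 0.09 (adjusted p = 0.0234, limma), but this call was lost without gal11-myc med3Δ YPD replicate 1 (adjusted p = 0.129) and without gal11Δ med3Δ YPD replicate 2 (0.0831) or 3 (0.0585). It was also lost with the 6 arrays of the groups compared (0.0647), with the YPD arrays alone (0.064) and without the YPD arrays numbered 3 (0.0698). Of the 10 genes, 6 were lower without the YPD arrays numbered 3, and 8 without these and gal11Δ med3Δ CSM replicate 1. No share of all genes is given here for these settings. PXA1 differed by -0.47 ± 0.20, which did not pass, and by -0.83 (adjusted p = 7.6e-05) without gal11-myc med3Δ YPD replicate 3.

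In CSM, 6 of the 10 genes were lower in gal11-myc med3Δ than in gal11Δ med3Δ and 0 higher, against 10.3% of all genes lower and 7.65% higher, and 3 by 2-fold or more, against 1.47%. POX1 was lower by -1.88 ± 0.25, ECI1 by -1.36 ± 0.09 and CTA1 by -1.07 ± 0.28. DCI1 was lower by -0.93 ± 0.23, SPS19 by -0.87 ± 0.14 and PEX11 by -0.42 ± 0.09. Without gal11Δ med3Δ CSM replicate 1, CTA1 differed by -0.80 and no longer passed (adjusted p = 0.057, limma). FAA2 differed by -0.75 ± 0.26 (adjusted p = 0.0575) and FOX2 by 0.33 ± 0.16, the other direction, and neither passed. With the 6 arrays compared and with the 9 CSM arrays, FAA2 (adjusted p = 0.0228 and 0.00483, limma) and PXA1 (0.029 and 0.00753) passed as lower. In these settings 8 genes were lower, against 9.8% and 13.7% of all genes. FOX2 alone passed as higher there, against 7.96% and 12.2% of all genes. FAA2 and PXA1 also passed as lower with both array weightings and without the YPD arrays numbered 3 (0.000488 and 0.0113).

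**Figure D3:**
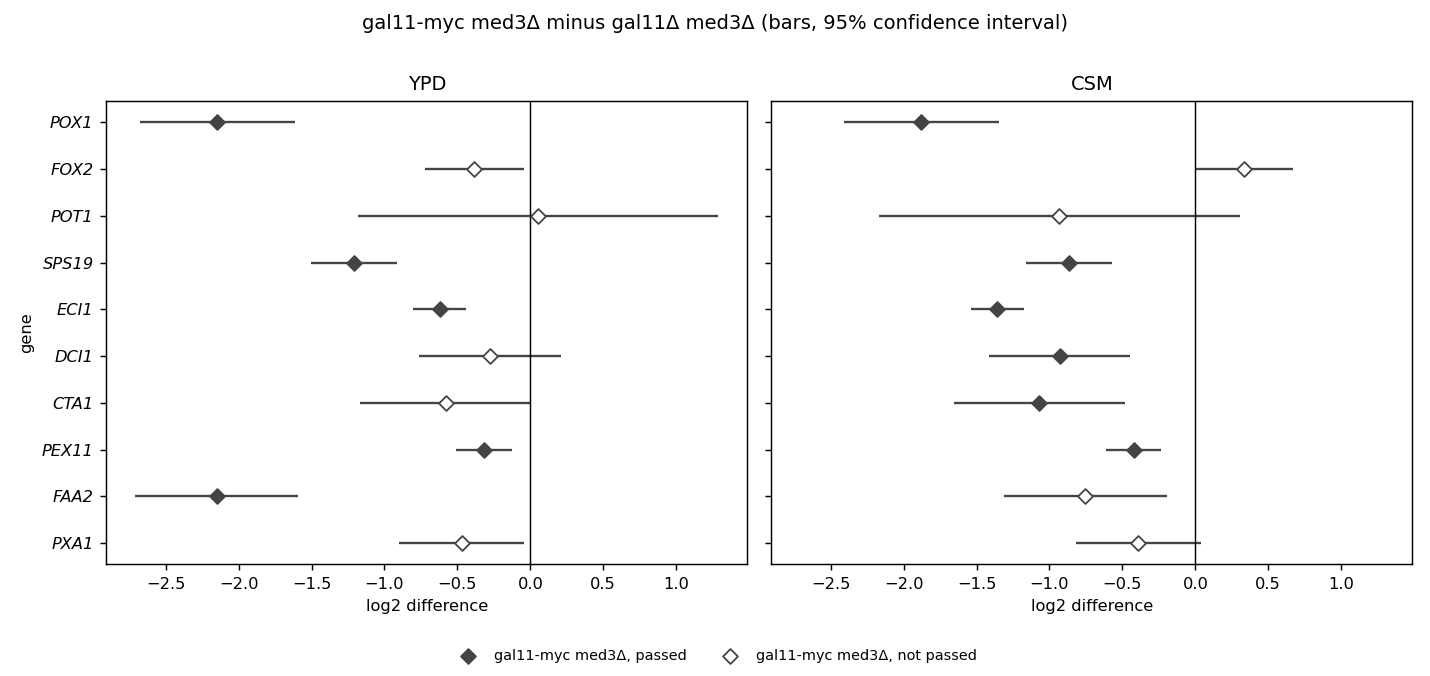
Log2 difference between the mutants, gal11-myc med3Δ minus gal11Δ med3Δ (x axis), with 95% confidence intervals, in YPD (left) and CSM (right); filled symbols passed. Every filled symbol lies below 0, and FOX2 in CSM and POT1 in YPD are the genes with estimates above 0.

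Whether a mutant's difference from wild type itself differed between media was tested as the CSM difference minus the YPD difference. In gal11Δ med3Δ, 4 genes had a larger difference in CSM and 2 a smaller one, against 15.1% and 16% of all genes. ECI1 differed by 0.97 ± 0.12 (adjusted p = 1.32e-05, limma), from 1.0 in YPD to 1.96 in CSM. SPS19 differed by 0.95 ± 0.20 (adjusted p = 0.00147) and CTA1 by 1.65 ± 0.39 (adjusted p = 0.00408). These 3 calls held in each of the 12 fits that left out 1 array.

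POT1 differed between media by 2.40 ± 0.83 (adjusted p = 0.036, limma), FOX2 by -0.68 ± 0.23 (0.0292) and FAA2 by -1.07 ± 0.37 (0.0374). These calls were often lost when 1 array was left out, and passed in 5, 3 and 4 of those 12 fits. Without wild type YPD replicate 1, the high array, POT1 differed by 1.61 (adjusted p = 0.0927, limma), and without gal11Δ med3Δ YPD replicate 3 FAA2 differed by -0.76 (adjusted p = 0.0982). POX1 differed by 0.12 ± 0.36 (interval -0.63 to 0.87), which did not pass. It passed with default array weights (0.74, adjusted p = 0.0452, limma), whose iteration stopped before convergence. With gene-by-gene weights it did not pass, nor in any of the 12 fits that left out 1 array (-0.22 to 0.39). DCI1 differed by 0.77 ± 0.33 (adjusted p = 0.0825) and did not pass. It passed without wild type YPD replicate 3 (1.16, adjusted p = 0.000259) and without the YPD arrays numbered 3 (0.000712). Default and gene-by-gene weights also gave a pass (2.18e-05 and 2.39e-05). PEX11 differed by -0.21 ± 0.13 and passed as smaller in CSM with these weights (0.00152 and 0.0066).

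In gal11-myc med3Δ the same test passed for SPS19 alone of the 10 genes, at 1.29 ± 0.20 (adjusted p = 0.000181, limma), against 5.51% of all genes larger in CSM and 8.17% smaller. CTA1 differed by 1.16 ± 0.39 (adjusted p = 0.0608). It passed without wild type YPD replicate 3 (0.0362) or gal11-myc med3Δ YPD replicate 2 (0.022), and with default and gene-by-gene weights (6.64e-06 and 0.000438). Those weightings gave 8 and 7 genes larger in CSM, with no share of all genes given here, and the default's iteration stopped before convergence. PEX11 differed by -0.31 ± 0.13 (adjusted p = 0.124) and passed as smaller in CSM with the replicate number as a block (0.0333). The SPS19 call held in each of the 12 fits that left out 1 array. In that mutant 2 genes passed as larger in CSM without the YPD arrays numbered 3, and 4 without these and gal11Δ med3Δ CSM replicate 1. No share of all genes is given here for these settings.

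**Figure D4:**
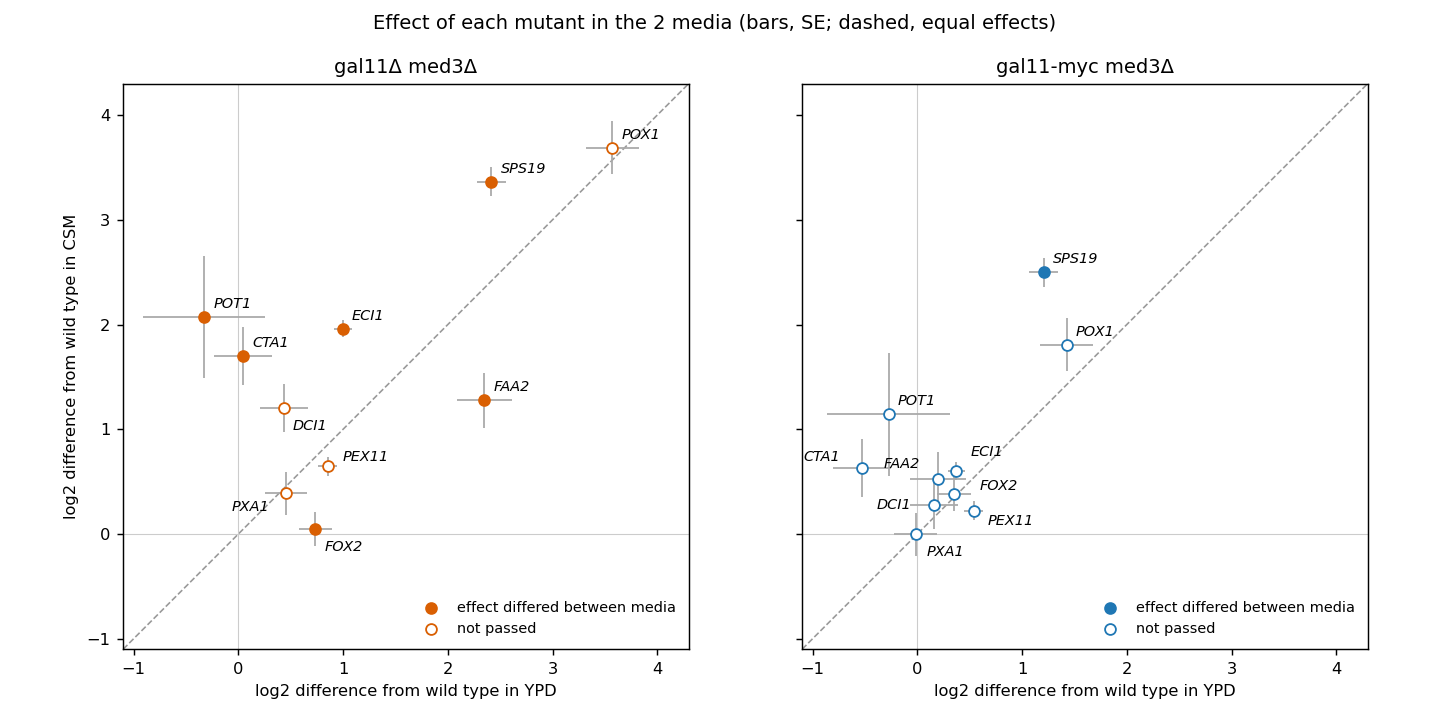
Log2 difference from wild type in YPD (x axis) and CSM (y axis) of each gene in gal11Δ med3Δ (left) and gal11-myc med3Δ (right), with standard errors; the dashed line marks equal differences, and filled symbols are genes whose difference changed with medium. SPS19 lies above the line in both mutants, and FAA2 and FOX2 lie below it in gal11Δ med3Δ.

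Genes that act beside these enzymes were read from lists of related genes, and each list's share of passing genes is read against the share of all genes. Of all genes, 27.5% rose and 19.4% fell in gal11Δ med3Δ YPD, and 27.1% and 18.4% in CSM. The tagged strain had 21.2% and 12.1% in YPD and 22.4% and 14.2% in CSM. Of 8 regulators of peroxisomal genes, gal11Δ med3Δ had 1 that rose and 1 that fell in YPD and 1 and 2 in CSM, and the tagged strain had 0 and 2 in each medium. These are 0% to 12.5% higher, below the share of all genes, and 12.5% to 25% lower. MIG2, a glucose repressor, fell in all 4 comparisons, with -0.91 (YPD) and -1.92 (CSM) in gal11Δ med3Δ, and -2.07 and -1.88 in the tagged strain. ADR1, the activator, rose by 0.74 ± 0.27 in gal11Δ med3Δ YPD, and PIP2 rose by 0.49 ± 0.14 while OAF1 fell by -0.45 ± 0.10 in gal11Δ med3Δ CSM. MIG1 fell by -0.39 in gal11-myc med3Δ YPD, and SNF1, the kinase that relieves glucose repression, by -0.43 in CSM.

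Of 13 other peroxisomal enzymes and transporters, 5 rose (38.5%) and 0 fell in gal11Δ med3Δ YPD, against 27.5% and 19.4% of all genes, and 6 rose (46.2%) and 3 fell (23.1%) in CSM, against 27.1% and 18.4%. In gal11-myc med3Δ 5 rose (38.5%) and 0 fell in YPD, against 21.2% and 12.1%, while in CSM 3 rose and 3 fell (23.1% each), where the share that rose is near the 22.4% of all genes. IDP3, the peroxisomal NADP isocitrate dehydrogenase that supplies Sps19, rose in all 4, by 1.68 ± 0.11 (YPD) and 2.20 ± 0.11 (CSM) in gal11Δ med3Δ, and by 0.93 ± 0.11 and 1.36 ± 0.11 in the tagged strain. PXA2, the partner of PXA1, rose by 0.89 ± 0.15 and 0.66 ± 0.15 in gal11Δ med3Δ and by 0.58 ± 0.15 in gal11-myc med3Δ YPD. MDH3, the peroxisomal malate dehydrogenase, rose by 0.29 to 0.53 in all 4. The thioesterase gene TES1 rose by 0.57 ± 0.11 in gal11Δ med3Δ YPD and by 0.44 ± 0.11 in its CSM comparison. PCS60, of a peroxisomal AMP-binding enzyme, rose by 0.42 ± 0.11 in gal11-myc med3Δ YPD but fell by -0.43 ± 0.11 in gal11Δ med3Δ CSM. The fatty acid importer gene FAT1 fell by -1.05 and -0.99 in CSM in the 2 mutants, and PNC1, a nicotinamidase, by -0.93 and -0.68. CIT2, the peroxisomal citrate synthase, fell by -0.80 ± 0.27 in gal11-myc med3Δ CSM.

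The peroxins build the peroxisome. Of 26 listed, 24 were measured, and 11 rose (45.8%) and 2 fell in gal11Δ med3Δ YPD, against 27.5% and 19.4% of all genes, and 10 (41.7%) and 1 in CSM, against 27.1% and 18.4%. In gal11-myc med3Δ 9 rose (37.5%) and 0 fell in YPD, against 21.2% and 12.1%, and 4 (16.7%) and 2 in CSM, where the share that rose is below the 22.4% of all genes. PEX30, a regulator of peroxisome number, rose in all 4 by 0.63 to 1.17. PEX19, a receptor for membrane proteins, rose by 0.41 in all 4. PEX18, which carries cargo with Pex7, rose by 0.85 and 1.24 in CSM and by 0.84 in gal11-myc med3Δ YPD, and PEX32 fell by -0.68 and -0.89 in CSM. PEX21, the paralog of PEX18, fell by -0.64 in gal11Δ med3Δ YPD and -0.95 in gal11-myc med3Δ CSM. PEX2, a ubiquitin ligase subunit, rose by 0.74 and 0.46 in YPD and PEX29 by 0.73 and 0.41, while PEX5, the cargo receptor, rose by 0.72 in gal11Δ med3Δ CSM.

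Of the 4 carnitine shuttle genes, which move the product to mitochondria, 2 rose in gal11Δ med3Δ YPD and 3 in CSM, against 27.5% and 27.1% of all genes. In gal11-myc med3Δ 1 rose in YPD (25%), near the 21.2% of all genes, and 3 in CSM, against 22.4%. CRC1, the carnitine carrier, rose by 3.02 ± 0.17 and 2.17 ± 0.17 in CSM, and differed by 0.02 and -0.30 in YPD, which did not pass. YAT2, a carnitine acetyltransferase, rose by 2.62 ± 0.07 in gal11Δ med3Δ CSM, 0.63 ± 0.07 in gal11Δ med3Δ YPD and 0.67 ± 0.07 in gal11-myc med3Δ CSM. CAT2, the main carnitine acetyltransferase, rose by 0.81 ± 0.13 and 0.49 ± 0.13 in gal11Δ med3Δ and by 0.38 ± 0.13 in gal11-myc med3Δ YPD, and YAT1 rose by 0.68 ± 0.25 in gal11-myc med3Δ CSM.

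Of 11 genes of fatty acid synthesis and cytosolic activation, 4 were higher (36.4%) and 5 lower (45.5%) in gal11Δ med3Δ YPD, against 27.5% and 19.4% of all genes. In CSM 2 were higher and 2 lower (18.2% each), at or below the 27.1% and 18.4% of all genes. The tagged strain had 2 higher (18.2%) and 4 lower (36.4%) in YPD, against 21.2% and 12.1%, with 2 of each (18.2%) in CSM, against 22.4% and 14.2%. FAS1, a subunit of fatty acid synthase, fell by -0.51 to -0.78 in all 4, and the acyl-CoA synthetase gene FAA4 rose by 0.36 to 0.69. ACC1, the acetyl-CoA carboxylase, fell by -0.36 and -0.41 in CSM. In YPD the elongase gene ELO1 rose by 0.58 and 0.38 and FAA3 fell by -0.46 in each mutant, while FAA1 rose by 0.44 ± 0.15 in gal11Δ med3Δ. ACB1, of the acyl-CoA binding protein, rose by 0.18 in gal11Δ med3Δ CSM and ELO2 by 0.20 in gal11-myc med3Δ CSM.

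**Figure D5:**
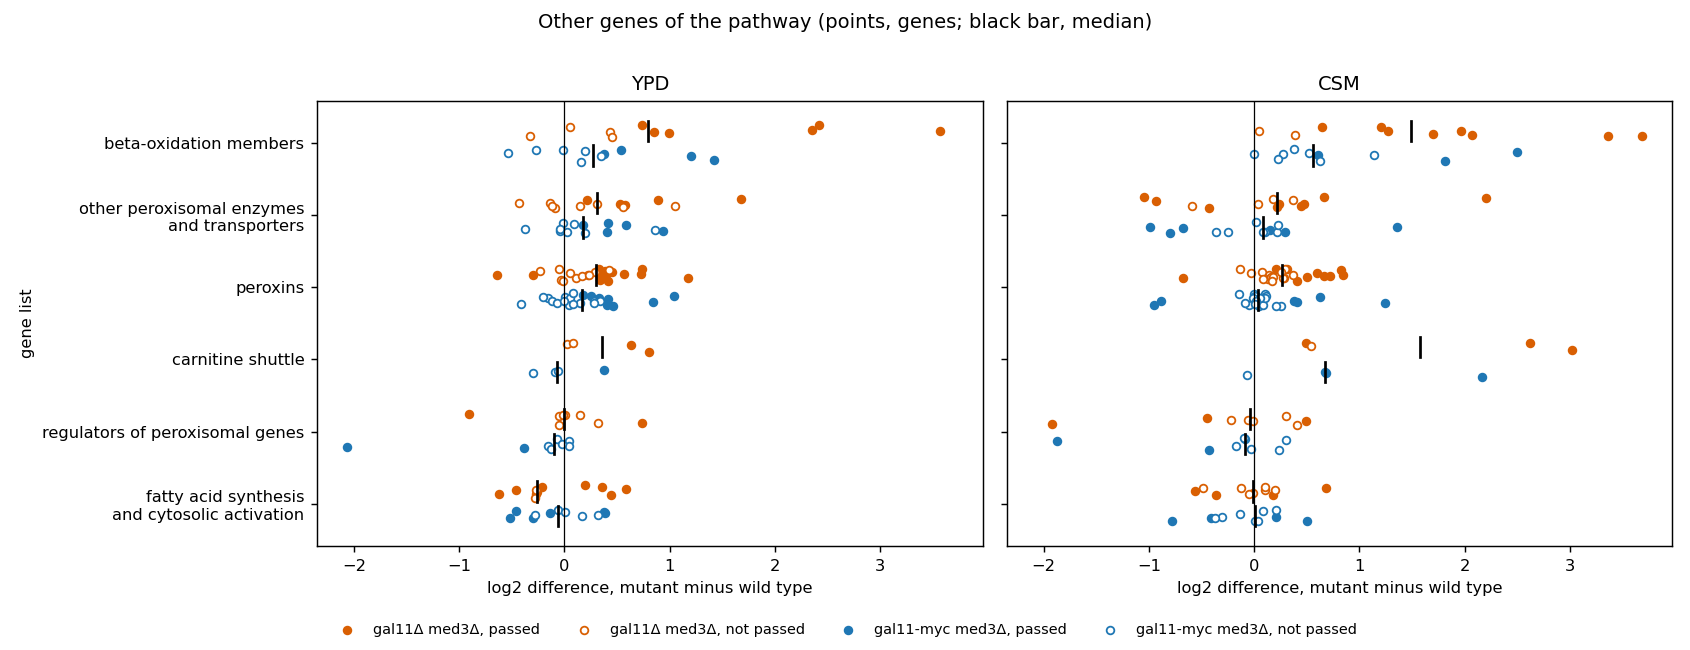
Log2 difference from wild type (x axis) of every measured gene of 6 lists (y axis) in YPD (left) and CSM (right); orange is gal11Δ med3Δ, blue gal11-myc med3Δ, filled points passed and black bars are medians. The beta-oxidation genes and the carnitine shuttle in CSM reach furthest right.

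The 17 measured neighbours of the 10 genes on the chromosome, chosen for description after the values were seen, showed 5 higher (29.4%) and 4 lower (23.5%) in gal11Δ med3Δ YPD, near the 27.5% and 19.4% of all genes. In CSM 3 (17.6%) and 1 (5.88%) did so, below the 27.1% and 18.4% of all genes. The tagged strain had 2 higher (11.8%) and 1 lower (5.88%) in YPD, with 0 of each in CSM, below 21.2%, 12.1%, 22.4% and 14.2%. SPS18, beside SPS19, differed by -0.30 to -0.34 in the 4 comparisons and passed in none, while SPS19 rose by 1.21 to 3.36. FAA2 has BUD25 and BIM1 beside it, which rose by 1.36 and 0.88 in gal11Δ med3Δ YPD, where FAA2 rose by 2.35. In gal11Δ med3Δ CSM FAA2 rose by 1.28, while BUD25 (0.16) and BIM1 (0.19) did not pass. In gal11-myc med3Δ YPD BUD25 rose by 0.85, while FAA2 (0.20) and BIM1 (0.10) did not pass. LAS17, beside DCI1, rose by 1.17 in gal11Δ med3Δ YPD, where DCI1 did not pass. The 4 lower neighbours there were RSC4 (-0.32) and TOF2 (-0.59) beside FOX2, SYC1 (-0.60) beside DCI1 and NOP53 (-0.56) beside PXA1.

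The 5 genes whose values ran closest to the mean of the 10, by root mean square difference over 18 arrays, were YIL055C (0.235), ODC1 (0.243), CAR1 (0.269), YLR157W-E (0.270) and GUT2 (0.282). ODC1 is a mitochondrial oxodicarboxylate carrier, CAR1 arginase and GUT2 a glycerol phosphate dehydrogenase. Among the 10, ECI1 lay nearest to the mean by this measure (0.263) and POX1 furthest from it (0.947). The measure counts the size of a gene's swings as well as their pattern, and POX1 had the largest SD over the 18 arrays (1.56).

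The authors' deposited table also compares the wild types BY4741 and BY4742 in YPD. In it LYS2 carries a fold of -88.4 and MET17 one of 440.5, so by the lys2Δ0 and met15Δ0 labels its signs run as BY4742 relative to BY4741, the opposite of its heading. In the same authors' deposited table the a-specific genes MFA2 (-164-fold) and STE2 (-98.0-fold) were then lower in BY4742 and the alpha-specific STE3 (38.6-fold) higher, which goes against its MATa label. Read so, in the authors' deposited table POX1 was -1.42-fold, SPS19 -1.58-fold, POT1 -1.61-fold and FOX2 1.56-fold in BY4742, and 0 of the 10 genes had a corrected p under 0.05, against 0.174% of 9797 probe sets. Those probe sets include ones not matched to the 5449 genes. At so small a share, 0 of 10 says little about these genes.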

How the data were processed

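Log2 values of 10928 probe sets on 21 arrays were made with RMA, per the submitters' processing notes, and were deposited after centring: each probe set's median is 0 for 100% of probe sets over the 9 YPD, 9 CSM and 3 BY4742 arrays. The authors' deposited fold change table (GeneSpring 11.5.1 per the file headers) gives signed linear folds, which were read as a score, with p-values and corrected p-values per probe set. The test behind them is not given in the sources used here, nor is a genome build. Its CSM folds match the log2 values within 0.001 for 100% of probe sets, and its YPD folds for 2.74% (gal11Δ med3Δ) and 2.8% (gal11-myc med3Δ). The median absolute difference in YPD was small, at 0.0206 and 0.0214 log2.

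Symbols came from the platform annotation, updated through Entrez IDs with RefSeq (R64, names and gene order only), so that 5498 of 7244 probe sets with 1 symbol gave 5449 genes, with the mean taken for the 47 genes with more than 1 probe set. Groups came from the sample titles. Group means were fitted with limma 3.58.1 in R 4.3.3 (lmFit and eBayes, 14 residual degrees of freedom), with 2-sided p-values adjusted by Benjamini-Hochberg over 5449 genes. The test was checked on simulated data with 200 changed genes. The simulated noise was independent between arrays and had 1 spread per gene in all groups. It could therefore not show what unequal spread between groups or deviations shared by arrays do to the calls. With 3 arrays against 3, an exact permutation test could not go below p = 0.1, and the number of arrays limits the precision. Figures were drawn with matplotlib 3.10.9.

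The 10 genes, the lists and the comparisons were chosen with earlier results of these data known. All 10 genes are named, with up to 4 passing genes of largest absolute difference per other list and comparison, the targeted genes and markers, and the 5 genes closest to the mean of the 10. For TES1 and PCS60 a further comparison in which they passed is given. Neighbouring genes and the settings that leave out several arrays were added after the data were seen. Promoter sequences were not used here.

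Same-numbered arrays deviated together in YPD (correlations 0.15 to 0.61 over genes, every pair over 0.1) but not in CSM (-0.22 to 0.22). Arrays numbered 1 and 2 also correlated with each other (0.0898 to 0.45), in several cases more than arrays of equal number, and both ran against those numbered 3 (-0.53 to -0.16). Deviations were taken from the mean of a group's 3 arrays, so they cancel within a group. A shared deviation of the arrays numbered 3 therefore by itself pushes those numbered 1 and 2 together and against it. The numbers thus met the threshold of 0.1 for pairing in YPD, from the data and not the labels. These correlations cannot tell a pairing by number from arrays numbered 3 that stand apart. In the 3 YPD comparisons the replicate block left the counts at 6 and 4 higher and 5 lower, against 31.6%, 25.5% and 11.7% of all genes.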

Additional observations from a re-analysis of the deposited data

Results flagged for a closer look

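For 7 results the difference between mutant and wild type was itself different in CSM and YPD by the limma interaction test. In gal11Δ med3Δ the difference was larger in CSM for ECI1 (0.97, log2), SPS19 (0.95), CTA1 (1.65) and POT1 (2.40), and smaller for FOX2 (-0.68) and FAA2 (-1.07). In gal11-myc med3Δ it was larger in CSM for SPS19 (1.29). Over all genes 15.1% were larger and 16% smaller in the first mutant, and 5.51% and 8.17% in the other. For POT1, wild type YPD replicate 1 (1.97) lay far above its peers (-0.45 and -0.33), and gal11Δ med3Δ CSM replicate 1 (1.75) above its own (0.43 and 0.44). The part of these arrays in the POT1 result was measured by leaving each out, which gave 1.61 (adjusted p = 0.0927, limma) and 1.96 (adjusted p = 0.0856).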

How the results depend on the processing

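Against wild type, each call that passed also passed under every other setting run, with the exception of the authors' deposited table, where FOX2 in gal11Δ med3Δ YPD, POT1 in gal11Δ med3Δ CSM and all 4 genes of gal11-myc med3Δ YPD were lost. That source had 0 genes higher in gal11-myc med3Δ YPD and 6 in CSM, with no share of all probe sets given here, and PXA1 in YPD differed by 0.00099. Robust eBayes and 1 probe set per gene changed no call.

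The planned array weights used limma's default, which stopped before convergence in all 8 fits. Gene-by-gene weights were added after its results were seen, so both are given. By the default, 1 gene was lower in gal11Δ med3Δ YPD, 5 were lower in gal11-myc med3Δ YPD, 9 were higher in its CSM comparison, 1 was higher between mutants in CSM, and 8 were larger and 1 smaller in CSM than YPD in gal11-myc med3Δ. Gene by gene, the last 4 comparisons gave 2, 9, 1, and 7 and 1. Shares of all genes under either weighting are not given here. Signs turned under the default and the gene-by-gene weights for DCI1 (-0.0183, -0.00060) and CTA1 (-0.54, -0.42) in gal11Δ med3Δ YPD, FOX2 in its CSM comparison (-0.0258, -0.0189), DCI1 (-0.34, -0.26) and FAA2 (-0.42, -0.33) in gal11-myc med3Δ YPD, and FOX2 between media in gal11-myc med3Δ (-0.13, -0.0898). POT1 between mutants in YPD turned to -0.0803 under the default alone. The cause was not tested.

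In settings chosen after seeing the data, without the YPD arrays numbered 3, gal11-myc med3Δ had 5 genes higher in CSM and 2 larger in CSM than YPD. Without gal11Δ med3Δ CSM replicate 1 as well, these were 8 and 4, with 2 lower in YPD and 8 lower than gal11Δ med3Δ in YPD. These counts are not set against a share of all genes, which is not given here for these settings. Signs turned in both settings for CTA1 in gal11Δ med3Δ YPD (-0.29), DCI1 (-0.27) and FAA2 (-0.33) in gal11-myc med3Δ YPD and FOX2 between media in gal11-myc med3Δ (-0.0542), and in the second for FOX2 in gal11Δ med3Δ CSM (-0.0217).

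For gal11-myc med3Δ in CSM, 9 genes were higher with the 6 arrays compared, 7 with the medium's arrays and 5 with the replicate block. Of all genes, 39%, 26.8% and 26.6% were higher. Between mutants in CSM, 1 gene, FOX2, was higher and 8 lower with the first 2 of these settings. Of all genes, 7.96% and 12.2% were higher there and 9.8% and 13.7% lower. The difference between media in gal11Δ med3Δ was smaller in CSM for 1 gene with the YPD and CSM arrays alone, against 16.4% of all genes. It was so for 1 gene with the replicate block too, against 20.5%. The count was also 1 without BY4742 and with all probe sets tested, for which no share of all genes is given here. In each of these settings FAA2 was lost (adjusted p = 0.0502 to 0.0576, limma), and with all probe sets tested POT1 was lost too (0.0535). With the block, 1 gene, PEX11, was smaller in CSM in gal11-myc med3Δ, against 11.6% of all genes. No other call changed with the block beyond FOX2 and PEX11 in gal11-myc med3Δ CSM. With every array shifted to a median of 0, PXA1 between media in gal11-myc med3Δ was -0.0085.

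Leaving out each array in turn gave 0 to 1 lower genes in gal11-myc med3Δ YPD, 0 to 2 genes smaller in CSM in gal11Δ med3Δ and 1 to 2 larger in gal11-myc med3Δ. Shares of all genes are not given here for these fits. Signs turned among differences that did not pass. In gal11Δ med3Δ these were POT1 (-0.75 to 0.46) and CTA1 (-0.14 to 0.35) in YPD, FOX2 in CSM (-0.0217 to 0.0884), and POX1 (-0.22 to 0.39) and PXA1 (-0.15 to 0.0314) between media. In gal11-myc med3Δ YPD they were POT1 (-0.95 to 0.51), DCI1 (-0.23 to 0.40), FAA2 (-0.10 to 0.40) and PXA1 (-0.38 to 0.17, passing without replicate 3). The rest were PXA1 in CSM (-0.0405 to 0.0331), FOX2 (-0.12 to 0.16), DCI1 (-0.12 to 0.51) and PXA1 (-0.17 to 0.37) between media in that mutant, and POT1 between mutants in YPD (-0.62 to 0.51). The planned search of promoters for motifs, and its alternative spacing, were not run, because no promoter sequence was used here.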
